A study of Drosophila melanogaster with 24 samples.

Results

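The passage of the Drosophila wing out of the prepupal period was examined by setting 18 h after puparium formation (APF) against 6 h APF. The arrays were taken by their titles, 18 h replicates A, B, C and D and 6 h replicates A, B, D and E, and made up 8 of the 24 arrays of a time course whose further stages were late L3 and 2, 24 and 36 h APF. Both groups were wings of w1118 animals, a white-eyed laboratory strain, with no other allele and no treatment named. Each independently obtained sample held 10 wings. The 18 h wings were dissected without the presumptive notum, the future dorsal thorax, and the 6 h wings still held it, so that stage and tissue content changed together and cannot be told apart. A stage field of the labels differed from the title for all 8 arrays. It gave L3 for 3 of the 18 h arrays, 24 h for the other 18 h array and 36 h for the 4 arrays of 6 h, and the titles, which the sample descriptions repeat, were used.

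Pulses of the steroid hormone ecdysone time metamorphosis, and successive pulses turn transcription factors and their target genes on and off in a fixed order. At 6 h APF the wing is an elongating sac whose cells largely pause in G2 of the cell cycle. By 18 h APF it is a flat pupal wing bilayer that is passing through its final, partly synchronous division, ahead of cell cycle exit and hair formation.

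Each array gave 1 linear intensity per transcript for 15473 transcripts, and all values below are its log2. Intensities on the 8 arrays ran from 17.05 to 64238, the log2 medians of the arrays lay between 9.44 and 9.53, and no 2 arrays held identical values. In both stages 1 array lay at each of the 4 positions of a slide. Arrays of 18 h correlated with those of 6 h at 0.897 to 0.921 across transcripts, and arrays within a stage at 0.971 to 0.993 for 18 h and 0.978 to 0.992 for 6 h. The array that stood apart was 18 h replicate C, in which 1774 transcripts lay more than 2-fold away from the average of replicates A, B and D, 1246 of them higher and 528 lower in C. Against the average of the rest of its stage, that number was 134 to 408 for the other 18 h arrays. In 6 h it was 990 for replicate B and 208 to 504 for the others. The counts of calls are therefore given with and without 18 h replicate C, and other results with it unless stated.

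Between the stages 6270 of 15473 transcripts differed (40.5%), 3497 higher at 18 h (22.6%) and 2773 lower (17.9%), at a Benjamini-Hochberg adjusted p under 0.05 from limma. The median rise was 1.86-fold and the median fall 2.05-fold. Without 18 h replicate C the test called 6204 transcripts (40.1%), 3563 higher (23%) and 2641 lower (17.1%), and 5803 (37.5%) were called in the same direction both ways. The arrays of the stages did not overlap for 5939 transcripts (38.4%), all 18 h arrays above all 6 h arrays for 3341 (21.6%) and below them for 2598 (16.8%), and 5379 (34.8%) were called as well. The excess of rises depended on scaling, with 3113 rises and 3175 falls under cyclic loess. In bulk tissue, fewer cells of a type and less RNA per cell cannot be told apart.

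Small changes were more often rises and large changes more often falls. Over 2-fold there were 1492 rises (9.64% of all transcripts) and 1432 falls (9.25%), and over 4-fold 415 rises (2.68%) and 656 falls (4.24%). Over 8-fold the numbers were 132 rises (0.853%) and 360 falls (2.33%), and over 16-fold 58 rises (0.375%) and 210 falls (1.36%). Of the 9203 transcripts that did not pass, 7049 had 95% limits within 2-fold in either direction and 3443 within 1.5-fold. For the others the limits reached past those folds, at a median SD over the arrays of a stage of 0.248 for 18 h (0.186 without replicate C) and 0.229 for 6 h. Calls were fewest among dim transcripts. When transcripts were cut by their mean over the 8 arrays into 4 bins of equal size, 12.3% of the dimmest bin, log2 4.29 to 6.64, were called, against 36.8%, 57.7% and 55.3% in the next bins.

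**Figure D1:**
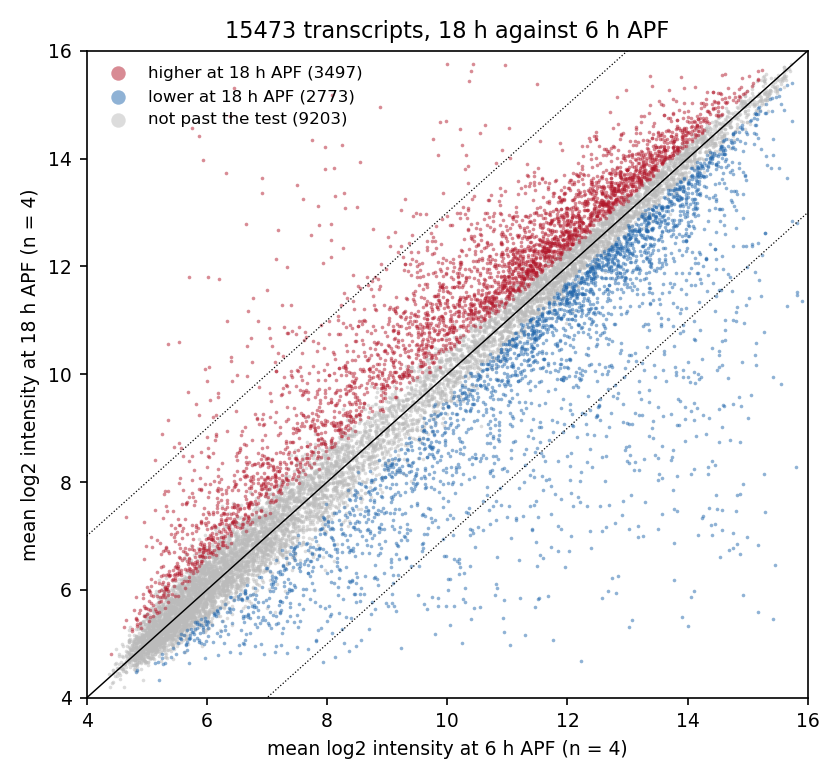
Mean log2 intensity of each transcript at 18 h APF (vertical axis, n = 4) against 6 h APF (horizontal axis, n = 4), with rises in red, falls in blue and transcripts not past the test in grey; the solid line marks equality and the dotted lines 8-fold. Below the lower dotted line the falls over 8-fold (360) outnumber the rises over 8-fold above the upper one (132).

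The largest changes ran between the bright and dim ends of the array. The 2 largest rises and the 2 largest falls carried FlyBase transcript identifiers that the tables used here tie to no gene. FBtr0075382 had log2 values of 15.31, 15.45, 15.16 and 15.28 in 18 h wings, replicates A to D, against 6.88, 6.10, 6.21 and 6.61 in 6 h wings, replicates A, B, D and E. Every 18 h array lay far above every 6 h array, and the difference was 8.85 (SE 0.32, 95% limits 8.19 to 9.51, adjusted p = 7.9e-15 from limma). FBtr0074867 had 14.68, 14.55, 14.56 and 14.50 in 18 h wings, against 5.83, 5.99, 5.39 and 5.81 in 6 h wings, a difference of 8.82 (SE 0.27, adjusted p = 1.3e-15).

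After 18 h APF these transcripts parted. FBtr0075382 averaged 6.61 ± 0.38 at L3, 7.19 ± 0.47 at 2 h and 14.30 ± 0.09 at 24 h APF (SD, n = 4 each), and 12.90 ± 1.06 at 36 h APF (SD, n = 3). FBtr0074867 averaged 6.69 ± 0.46 at L3, 7.65 ± 0.37 at 2 h and 11.65 ± 0.47 at 24 h APF (SD, n = 4 each), and only 7.28 ± 0.65 at 36 h APF (SD, n = 3). One stayed bright through 36 h APF, and the other was back near its L3 level by then.

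The largest falls began among the brightest transcripts of the 6 h wing. FBtr0080124 had 5.18, 5.56, 5.51 and 5.58 in 18 h wings, against 15.50, 15.33, 15.36 and 15.47 in 6 h wings, and fell by 9.96 on the log2 scale (SE 0.43, adjusted p = 1.4e-13 from limma). FBtr0078597 had 5.55, 5.72, 5.22 and 5.88 in 18 h wings, against 15.06, 15.22, 15.05 and 15.37 in 6 h wings, and fell by 9.58 (SE 0.53, adjusted p = 5.6e-12). No 18 h array came near a 6 h array for either transcript. FBtr0080124 averaged 7.97 ± 0.28 at L3, 8.37 ± 0.37 at 2 h, 5.68 ± 0.20 at 24 h (SD, n = 4 each) and 6.89 ± 1.76 at 36 h APF (SD, n = 3), so that it was bright at 6 h APF alone among the 6 stages. FBtr0078597 averaged 5.01 ± 0.51 at L3, 10.98 ± 1.67 at 2 h and 5.41 ± 0.60 at 24 h (SD, n = 4 each), and stood at 12.26 ± 0.39 at 36 h APF (SD, n = 3), bright at 6 h and again at 36 h. The files hold no detection call, so whether the low values exceeded background is unknown and these folds may understate the change.

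As a group, transcripts that changed over 8-fold spanned a smaller range than the largest changes described above. The 132 rises had a median of 12.2 at 18 h, against 7.69 at 6 h, and the 360 falls had a median of 8.07 at 18 h, against 13.0 at 6 h. At the dim stage both medians lay above log2 6.57, the lower quartile of all values on the 8 arrays. Means of 33 of the 132 rises and 78 of the 360 falls lay under it at that stage. These values describe groups that the same contrast defined and carry no test.

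The arrays of the other stages entered the choice of transcripts only through the spread estimated over all stages. At each of those stages the median of the falls lay below that at 6 h APF. The median of the 360 falls was 8.25 at L3, 9.36 at 2 h, 13.0 at 6 h, 8.07 at 18 h, 7.94 at 24 h and 9.47 at 36 h APF. The median of the 132 rises was 9.49 at L3, 8.89 at 2 h, 7.69 at 6 h, 12.2 at 18 h, 12.2 at 24 h and 11 at 36 h APF. Over all transcripts the stage medians stayed between 9.35 and 9.50. Among the falls over 8-fold 303 (84.2%) had their highest stage mean at 6 h, against 15.8% of all transcripts. At 36 h APF 42 of them (11.7%) had it, against 31.7% of all transcripts. Among the rises over 8-fold 89 (67.4%) were lowest at 6 h, against 20% of all transcripts. Of these rises 56 (42.4%) were highest at 18 h and 47 (35.6%) at 24 h APF, against 8.45% and 12.7% of all transcripts. The choice of transcripts bars 6 h as the highest stage of a rise and 18 h as the highest stage of a fall. It also favours 6 h as the highest stage of a fall, and 6 h as the lowest and 18 h as the highest stage of a rise. These counts are therefore a description.

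**Figure D2:**
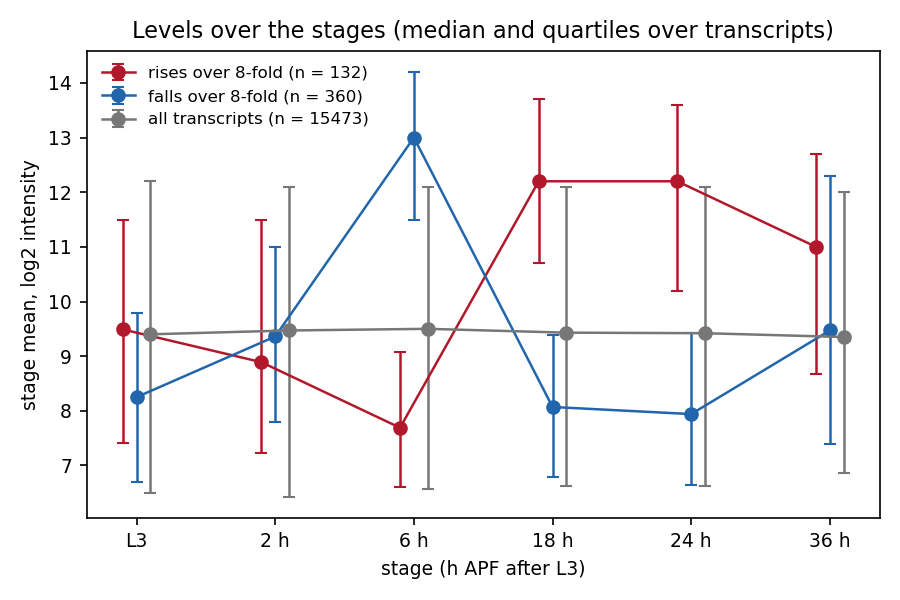
Stage means in log2 intensity at the 6 stages from L3 to 36 h APF for rises over 8-fold (red), falls over 8-fold (blue) and all transcripts (grey), as the median (point) and quartiles (bars) over transcripts. The falls stand at a median of 13.0 at 6 h and near 8 at 18 and 24 h APF, while the rises stand at 12.2 at both 18 and 24 h APF.

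A comparison of 24 h with 2 h APF shares no array with 18 h against 6 h APF, although it spans the same change of dissection. From that comparison 116 of the 132 rises over 8-fold (87.9%) were also higher at 24 h than at 2 h, where 53.5% of all transcripts were, with a median difference of 2.40 on the log2 scale. That comparison called 4946 transcripts (32%) in all. Of the 132, 103 passed the test upward and 12 downward, against 15.7% and 16.2% of all transcripts. Of the 360 falls over 8-fold 270 (75%) were lower at 24 h than at 2 h, with a median of -0.97, where 46.5% of all transcripts were lower. The test was passed downward by 194 of them and upward by 35. Levels at 24 and 2 h APF lay within 2-fold of each other for 155 of these falls (43.1%) and 31 of the 132 rises (23.5%), against 85.1% of all transcripts. Over calls of every size the shares moving the same way were smaller, at 2050 of 3497 rises (58.6%) and 1809 of 2773 falls (65.2%).

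The 11 arrays without notum lay wholly above the 12 arrays with notum for 292 of the 3497 rises (8.35%, against 1.94% of all transcripts) and wholly below them for 192 of the 2773 falls (6.92%, against 1.26% of all transcripts). Calls made up nearly all transcripts split in this way, which numbered 300 and 195. Such a split requires all 18 h arrays to lie beyond all 6 h arrays. The larger shares among calls were thus largely fixed in advance, and no conclusion is drawn from them. Among the falls 666 (24%) had a 24 or 36 h mean, from wings without notum, at or above the 6 h mean, and among the rises 1673 (47.8%) had an L3 or 2 h mean, from wings with notum, at or above the 18 h mean. For changes over 8-fold these numbers were 45 of 360 falls and 17 of 132 rises. In all of these sets the part of the notum in the difference between 18 h and 6 h cannot be told apart from that of the stage. Between the other neighbouring stages, none of which spans the change of dissection, the test called 3312 transcripts (21.4%) at 2 h against L3, 5471 (35.4%) at 6 h against 2 h, 1964 (12.7%) at 24 h against 18 h and 7744 (50%) at 36 h against 24 h.

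The 18 h wing resembled the 24 h wing most. From the 18 h mean the median absolute log2 difference over transcripts was 0.217 to 24 h, 0.289 to L3, 0.312 to 2 h, 0.392 to 6 h and 0.596 to 36 h APF. Over 2-fold differences numbered 892 to 24 h, 1874 to L3, 1984 to 2 h, 2976 to 6 h and 4786 to 36 h APF. The mean profile at 18 h was thus farther from that of the 6 h stage before it than from those of L3 and 2 h. Wings of 24 and 36 h were also without notum, and those of L3, 2 h and 6 h held it. Stage and tissue content therefore cannot be told apart in the distances to L3, 2 h and 6 h. These values describe stage means and were not tested.

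Through the synonyms listed for genes, 17 transcripts carried 1 gene name each, and all are described. Of these 17 genes 7 rose and 2 fell (52.9% called, against 40.5% of all transcripts), 8 did not pass, and the arrays did not overlap for 7 (41.2%, against 38.4% of all transcripts). Their median log2 difference was 0.23, against 0.06 over all transcripts. Leaving out 18 h replicate C lost none of the calls and added 1.

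Of the nucleolar and ribosome biogenesis list, sle was the only member with a named transcript. It encodes a nucleolar protein, slender lobes, and had log2 values of 12.56, 12.77, 12.78 and 13.02 in 18 h wings, against 10.96, 11.18, 11.23 and 10.94 in 6 h wings. Every 18 h array was above every 6 h array by over 1 log2 unit. The difference was 1.70 (SE 0.17, 95% limits 1.36 to 2.05, adjusted p = 3.2e-08 from limma), a 3.26-fold rise, and it was 1.60, 1.59 and 1.79 on the slides that held both stages. Before 6 h the level was also higher, at 13.27 ± 0.06 at L3 and 12.59 ± 0.10 at 2 h APF (SD, n = 4 each). The level was lower again at 24 h APF, at 11.74 ± 0.22 (SD, n = 4), and at 36 h APF, at 9.96 ± 0.52 (SD, n = 3).

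In the ubiquitin system 1 named gene rose and 1 fell. Uba1, the enzyme that activates ubiquitin at the head of the cascade, had 14.15, 14.00, 13.88 and 14.32 in 18 h wings, against 13.17, 13.22, 12.90 and 13.29 in 6 h wings. The groups did not overlap, and Uba1 rose by 0.94 (SE 0.16, 95% limits 0.60 to 1.28, adjusted p = 7e-05 from limma). Roadkill, rdx, the Cullin-3 adaptor through which the Hedgehog effector Ci is degraded and itself a Hedgehog target, was among the brightest transcripts, with 14.91, 14.92, 14.83 and 14.98 in 18 h wings, against 15.68, 15.57, 15.55 and 15.59 in 6 h wings. Its arrays were tight within each stage and did not overlap between them. It fell by 0.69 (SE 0.13, adjusted p = 0.00012), to a level close to those of L3, at 14.89 ± 0.04 (SD, n = 4), and of 24 h APF, at 14.94 ± 0.26 (SD, n = 4).

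The chromatin list had 4 named members, of which 2 rose. HDAC3, a histone deacetylase of corepressor complexes, had 13.57, 13.44, 13.31 and 13.45 in 18 h wings, against 12.83, 12.71, 12.81 and 12.77 in 6 h wings. All 6 h arrays lay below every 18 h array, and it rose by 0.66 (SE 0.09, adjusted p = 4.2e-06 from limma). Kismet, kis, a chromodomain ATPase of the trithorax group, had 13.43, 13.77, 14.01 and 13.79 in 18 h wings, against 13.24, 13.31, 12.98 and 13.32 in 6 h wings. The groups did not overlap, with replicate C the highest of the 18 h arrays, and kis rose by 0.54 (SE 0.15, adjusted p = 0.0052), or by 0.45 without replicate C (adjusted p = 0.024). His4r, a replacement copy of histone H4, averaged 9.58 ± 0.40 in 18 h wings, against 10.21 ± 0.20 in 6 h wings (SD, n = 4 each; difference -0.63, adjusted p = 0.06). Its 18 h replicate C, at 10.13, was the only 18 h array to reach into the range of the 6 h arrays, 9.92 to 10.36, and without it the difference was -0.82 and passed the test (adjusted p = 0.019), as it did without 6 h replicate B (-0.73, adjusted p = 0.048). SuUR, which suppresses replication of heterochromatin in polytene cells, averaged 10.65 ± 0.12 in 18 h wings, against 11 ± 0.26 in 6 h wings, and did not pass (adjusted p = 0.097), except under cyclic loess (adjusted p = 0.033).

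Of the lists of basement membrane and adhesion genes and of spectrin cytoskeleton genes, LanA and alpha-Spec were the only members with named transcripts. The former fell and the latter rose. LanA, the alpha chain of laminin in the basement membrane, had 9.63, 9.64, 9.18 and 9.78 in 18 h wings, against 11.12, 11.18, 10.81 and 11.20 in 6 h wings. All 18 h arrays were more than 1 log2 unit below all 6 h arrays, and LanA fell by 1.52 (SE 0.26, 95% limits -2.06 to -0.99, adjusted p = 5.2e-05 from limma), a 2.87-fold difference. Its level was already lower at 6 h than at L3, at 13 ± 0.07, and at 2 h APF, at 12.36 ± 0.19 (SD, n = 4 each). LanA stood at 10.48 ± 0.75 at 24 h APF (SD, n = 4), with a wider spread over its arrays. The spectrin subunit alpha-Spec, part of the lattice under the plasma membrane, had 12.81, 13.01, 12.78 and 13.12 in 18 h wings, against 12.52, 12.54, 12.22 and 12.73 in 6 h wings. The stages did not overlap, although 18 h replicate C and 6 h replicate E lay close, and alpha-Spec rose by 0.43 (SE 0.14, adjusted p = 0.019). That call was lost without replicate D of 18 h (adjusted p = 0.067) or of 6 h (adjusted p = 0.081) and under cyclic loess (adjusted p = 0.062).

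Both named members of the TORC1 regulators, mio and Wdr24, rose. Their proteins are subunits of GATOR2, which acts upstream of the growth kinase complex TORC1. The mio transcript had 10.28, 10.25, 9.29 and 10.00 in 18 h wings, against 9.6, 9.04, 9.39 and 9.28 in 6 h wings, and Wdr24 had 12.83, 12.81, 12.37 and 12.73 in 18 h wings, against 12.43, 12.32, 12.38 and 12.14 in 6 h wings. For both genes replicate C was the lowest 18 h array and the only one within the range of the 6 h arrays. The rise of mio was 0.63 (SE 0.21, adjusted p = 0.018 from limma) and 0.85 without replicate C (adjusted p = 0.00082). The rise of Wdr24 was 0.37 (SE 0.14, adjusted p = 0.045) and 0.47 without replicate C (adjusted p = 0.013). The call of mio was lost without replicate A of 18 h (adjusted p = 0.071), replicate B of 18 h (0.067) or replicate B of 6 h (0.063), and in a fit of the 8 arrays alone (0.064). The call of Wdr24 was lost without replicates A, B or D of 18 h or B, D or E of 6 h (adjusted p from 0.059 to 0.13), in the fit of the 8 arrays (0.069) and under cyclic loess (0.13).

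**Figure D3:**
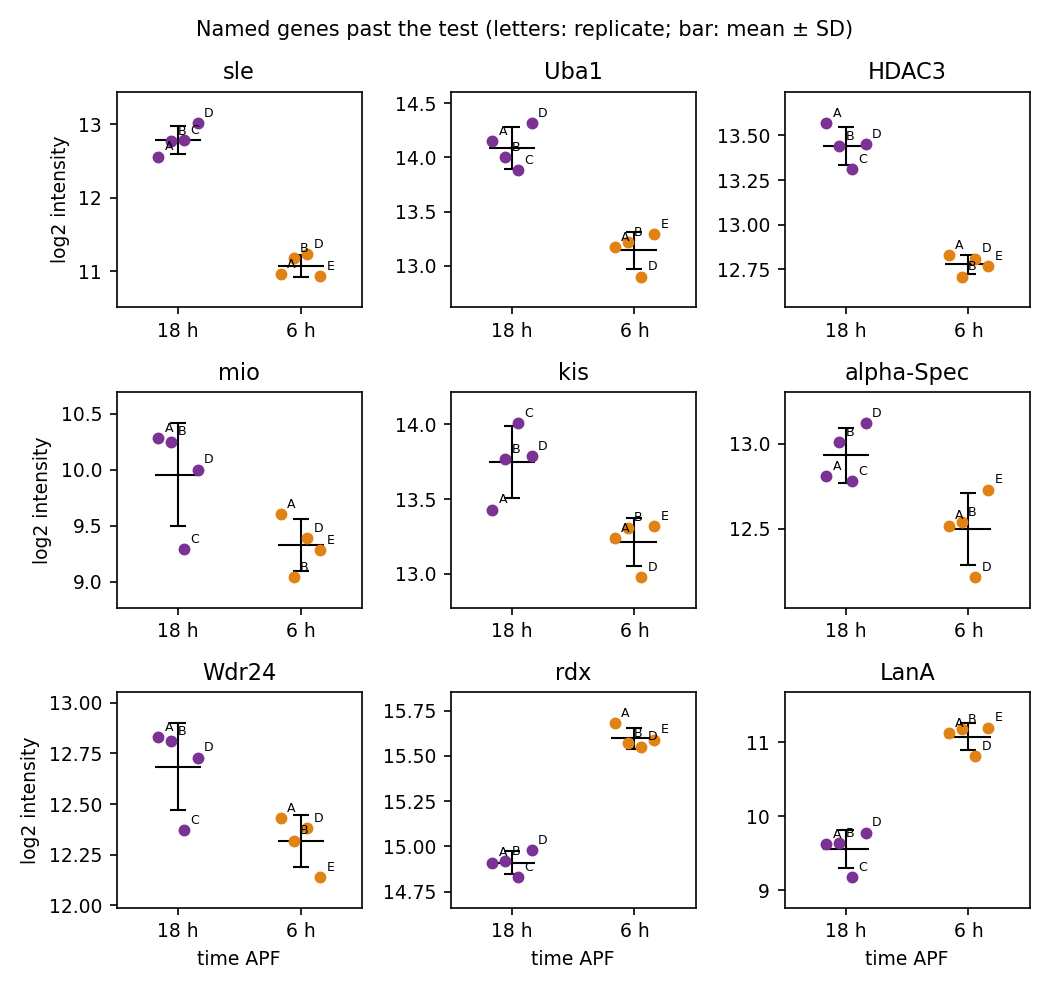
Log2 intensity on each array (points, with the replicate letter) for the 9 named genes past the test, 18 h APF at left and 6 h APF at right in each panel, with the mean and SD (bars, n = 4); vertical scales differ between panels and do not start at 0. Only mio and Wdr24 overlap, in both through 18 h replicate C.

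The other named genes did not pass the test. Dyrk3, a protein kinase, averaged 13.24 ± 0.19 in 18 h wings, against 13.01 ± 0.14 in 6 h wings (SD, n = 4 each), with 95% limits of the difference from -0.03 to 0.49. Fatp1, a fatty acid transport protein, averaged 11.60 ± 0.29 in 18 h wings, against 11.78 ± 0.10 in 6 h wings, with limits from -0.54 to 0.19. NaPi-III, a phosphate cotransporter, averaged 10.06 ± 0.60 in 18 h wings, against 10.09 ± 0.08 in 6 h wings. The wide 18 h spread of NaPi-III came from replicate C, at 9.22 where the other arrays had 10.11 to 10.63. CG16974 had limits from -0.38 to 0.17, and fend from -0.59 to 0.42. CG31178, the dimmest of these genes at 5.82 ± 0.45 in 18 h wings, against 5.47 ± 0.19 in 6 h wings, had limits from -0.45 to 1.13. The limits of CG31178 reached past 2-fold, and those of the other 5 genes lay within it.

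A further 27 transcripts were tied to several genes each, 25 of them to 2, 1 to 3 and 1 to 4, so that a value cannot be given to 1 of the genes. They were described as a whole group, a choice made after their values were seen. Of the 27, 8 rose, 5 fell and 14 did not pass (48.1% called, against 40.5% of all transcripts), the arrays did not overlap for 10 (37%, against 38.4% of all transcripts), and the median log2 difference was -0.01. Without 18 h replicate C the call of 1 was lost, Tfb5/CG31917, which carries a subunit of the repair and transcription factor TFIIH and had an adjusted p of 0.049 with replicate C and 0.12 without it. Its call was also lost without replicates A or D of 18 h or A, D or E of 6 h (adjusted p from 0.079 to 0.12).

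Of the 8 rises, CG5116/CG42488 was the largest, with 11.10, 10.75, 10.77 and 11.10 in 18 h wings, against 9.32, 8.91, 9.35 and 9.09 in 6 h wings. Every 18 h array was over 1 log2 unit above every 6 h array, and the rise was 1.76 (SE 0.16, adjusted p = 1.2e-08 from limma) and 1.78, 1.85 and 1.76 on the slides that held both stages. Dpm2/CG12016, which carries a subunit of dolichol-phosphate mannose synthase, had 11.02, 11.32, 11 and 11.04 in 18 h wings, against 10.20, 10.19, 10.20 and 9.67 in 6 h wings, and rose by 1.03 (SE 0.22, adjusted p = 0.00063). Its groups did not overlap.

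The transcript moi/Tgs1, which joins a telomere capping protein to the enzyme that trimethylates the cap of small nuclear RNAs, had 12.26, 12.16, 11.96 and 12.30 in 18 h wings, against 11.39, 11.49, 11.66 and 11.40 in 6 h wings. No array overlapped, and it rose by 0.68 (SE 0.11, adjusted p = 3.5e-05 from limma). The rises of Tcs6/PIG-P, with a factor of tRNA modification and one of GPI anchor synthesis, CG7950/Rpp14a, with a subunit of RNase P, and Pbp49/CG42516, with a subunit of the small nuclear RNA activating complex, were 0.60, 0.59 and 0.46 (adjusted p = 0.00048, 0.0011 and 0.00037). The transcript of PIG-M, another enzyme of GPI anchor synthesis, which it shares with CG42379, CG42380 and CG42381, rose by 0.28 (adjusted p = 0.029), and its call was lost without replicate A or B of 18 h or B or E of 6 h (adjusted p from 0.052 to 0.087).

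The falls were led by CG45089/ND-MNLL, which carries a subunit of mitochondrial complex I, with 6.40, 7.35, 5.93 and 6.30 in 18 h wings, against 8.06, 7.13, 7.60 and 7.42 in 6 h wings. It fell by 1.06 (SE 0.26, adjusted p = 0.0025 from limma), but 18 h replicate B lay above 6 h replicate B, the only slide of 3 on which the difference was not a fall (0.22, against -1.66 and -1.30). CG32573/CG42512, also dim, averaged 5.93 ± 0.19 in 18 h wings, against 6.76 ± 0.29 in 6 h wings (SD, n = 4 each; adjusted p = 0.0066), and CG30100/CG42372 averaged 11.50 ± 0.26 in 18 h wings, against 12.19 ± 0.16 in 6 h wings (adjusted p = 0.0041). CG7071/Muted, with a subunit of the lysosome-related organelle complex BLOC-1, fell by 0.53 (adjusted p = 0.00048). CG42375/CG9288 fell by 0.27 (adjusted p = 0.043), a call lost without any of replicates A and D of 18 h and A, B, D and E of 6 h (adjusted p from 0.059 to 0.18).

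The 14 transcripts that did not pass included those of Tim10, an import chaperone of mitochondria, of Rad1, a checkpoint clamp subunit, and of Mocs2A and Mocs2B, the subunits of molybdopterin synthase. CG42497/Tim10 had 95% limits of the difference from -0.03 to 0.50, Sws1/Rad1 from -0.44 to 0.43 and Mocs2A/Mocs2B from -0.25 to 0.27. Changes of 2-fold lay outside these limits for all 3. Of the 14, only CG10570/CG42502 had limits that reached past 2-fold, from -1.34 to 0.265.

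**Figure D4:**
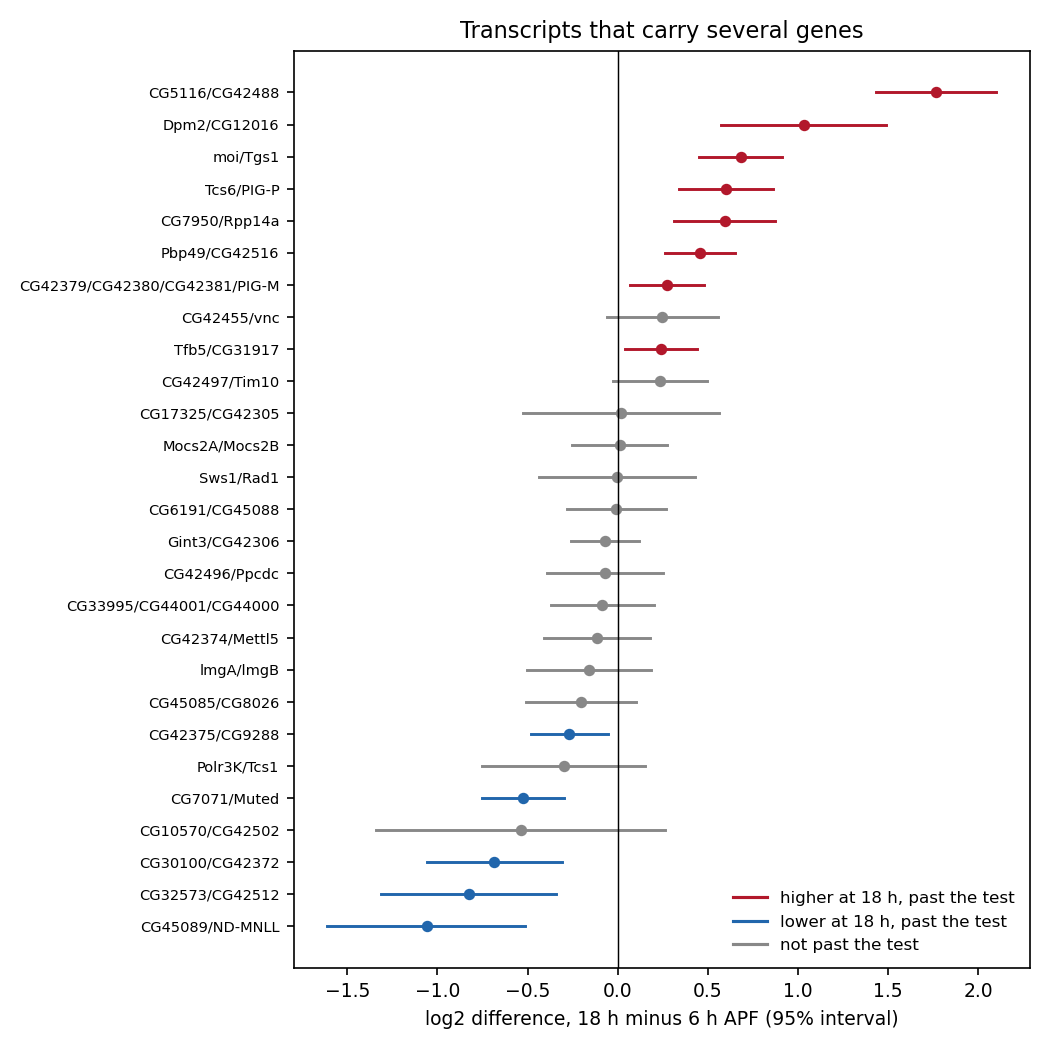
Log2 difference of 18 h minus 6 h APF (points) with its 95% limits (lines) for the 27 transcripts that carry several genes, ordered by size, in red for rises and blue for falls past the test and grey for the rest. CG5116/CG42488 stands at 1.76 at the top and CG45089/ND-MNLL at -1.06 at the bottom.

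Of 22 gene lists, 9 held a gene whose own transcript was named and 13 held none. The lists without one included ecdysone response, cell cycle, cuticle, planar polarity and wing hair, and the markers of wing, notum and myoblast, hemocyte, trachea, fat body and muscle, so the labelled tissue could not be checked against its markers. The neuron list was represented by fend alone.

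The difference between the stages was present on each slide that held an array of both. On the slide of replicates A, 5246 of 5289 transcripts called on the other arrays moved in the called direction (99.2%, against 81.4% of all transcripts moving in the direction fitted on the other arrays). On the slide of replicates B it was 5448 of 5762 (94.6%, against 72.4%), and on that of replicates D 5260 of 5431 (96.9%, against 78.7%). Median log2 differences within a slide were 0.90 to 1.02 for rises and -0.90 to -1.18 for falls, smallest in size on the slide of replicates B.

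The position of an array between the stages was expressed as its place, 0 at the 6 h mean and 1 at the 18 h mean, both taken without that array, as the median over transcripts called without it. The places were 0.984, 0.983, 0.917 and 0.987 for 18 h replicates A to D and -0.01, 0.12, 0.04 and -0.02 for 6 h replicates A, B, D and E. Replicate C of 18 h was low only for rises, at 0.821, and stood at 1.04 for falls. On 81.8% of called transcripts it lay on the 18 h side of the midpoint, against 92.2% to 94% for the other 18 h arrays. Replicate B of 6 h lay on the 6 h side for 81.9%, against 90.3% to 96.2% for the other 6 h arrays. The median absolute log2 difference of 18 h replicate C was 0.298 from the other 18 h arrays, 0.315 from the 24 h mean and 0.490 from the 36 h mean, and for the other 18 h arrays those values were 0.183 to 0.207, 0.279 to 0.297 and 0.640 to 0.702.

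**Figure D5:**
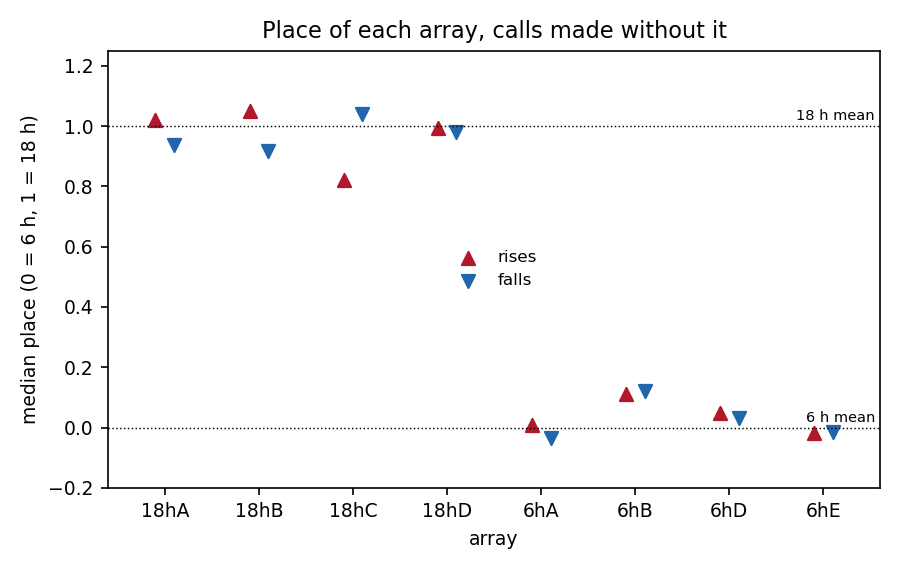
Median place of each array on a line from the 6 h mean (0) to the 18 h mean (1) for rises (red) and falls (blue), over transcripts called without that array, with the 18 h arrays at left and the 6 h arrays at right. Replicate C of 18 h stands at 0.821 for rises and 1.04 for falls, and replicate B of 6 h is the 6 h array farthest from 0.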

How the data were processed

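RNA from dissected w1118 wings was amplified, labelled with Cy3 and hybridized to NimbleGen 4-plex expression arrays, which limit the precision by their number. The authors quantile normalized the arrays together in NimbleScan and made 1 linear intensity per transcript from 3 to 5 probes by RMA (version not given in the sources used here, nor the genome build). The deposited intensity values of single samples were used after conversion to log2. A deposited log2 table of the series, with 15469 transcripts and 4 L3 columns in another's place, served as an alternative. Such normalization hides changes in total RNA and compresses dim differences.

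The 23 arrays of independent samples were fitted in limma 3.58.1 (R 4.3.3, lmFit and eBayes) with 1 mean per stage, and p-values were adjusted by Benjamini-Hochberg over 15473 transcripts. The pooled 36 h array was left out. The methods name an ANOVA at an adjusted p under 0.05. No transcript was filtered. The script was tested on simulated data. Names came from transcript identifiers among the synonyms of a Release 6 gene table, which tied 17 transcripts to 1 gene, 27 to several and left 15429 unnamed. With fewer than 100 single-gene transcripts, the rule for named genes took all of them and the 2 largest rises and 2 largest falls. Comparisons and gene lists were chosen with earlier results of these data known. Alternatives covered other scalings, blocks, thresholds, a filter on dim transcripts and the omission of each array. The omission of 18 h replicate C and 6 h replicate B together was added after seeing the data. Figures were drawn with matplotlib 3.10.9.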

Additional observations from a re-analysis of the deposited data

Results flagged for a closer look

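In groups of 4 arrays, 1 array lay far from the others in 8 of 98 groups tested by Dixon's ratio, where chance alone marks about 1 in 20. For Dpm2/CG12016 replicate B of 18 h had a log2 value of 11.32, against 11 to 11.04 on the other 18 h arrays, and replicate E of 6 h had 9.665, against 10.19 to 10.20 on the other 6 h arrays. Replicate B of 18 h was also apart for Tfb5/CG31917, at 13.41 against 13.67 to 13.72, and for Pbp49/CG42516, at 14.11 against 13.76 to 13.79. For Tcs6/PIG-P replicate E of 6 h had 13.47, against 13.20 to 13.23, and for His4r replicate B of 6 h had 9.923, against 10.28 to 10.36. FBtr0080124 had 5.178 in replicate A of 18 h, against 5.51 to 5.578 in the others. The median place of 18 h replicate C between the stages was 0.917, against 0.983 to 0.987 for the other 18 h arrays.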

How the results depend on the processing

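The count of 6270 called transcripts, 3497 higher and 2773 lower at 18 h, fell to 2286 (1213 and 1073) under Bonferroni adjustment, 2924 (1492 and 1432) over 2-fold and 1071 (415 and 656) over 4-fold. Leaving out 1 array in turn gave 5708 to 6204 calls, 3163 to 3563 higher and 2514 to 2744 lower. Deviations from the stage means correlated at 0.29, -0.16 and 0.11 for letters A, B and D, and at 0.39 for 18 h replicate C with 6 h replicate B. Those means include these last arrays, which stood apart, so the values cannot decide whether replicate letters pair the samples. The letter, which for these arrays is also the slide, was also fitted as a block over the 8 arrays. Replicate C of 18 h and replicate E of 6 h had no partner there. The difference between the stages then rested on the pairs of letters A, B and D alone. With the block 5031 were called, against 5927 over the 8 arrays without it, and 4551 were called in both in 1 direction. Calls of alpha-Spec, kis, Wdr24, CG45089/ND-MNLL, CG32573/CG42512, CG7071/Muted, Pbp49/CG42516, CG42375/CG9288, Tfb5/CG31917 and the PIG-M transcript were lost with the block (adjusted p from 0.068 to 0.38), and His4r passed (adjusted p = 0.017). The block thus also took the unpaired arrays out of the difference, and the part of each in these changes was not tested. Without 18 h replicate C and 6 h replicate B together, chosen after seeing the data, 6032 were called. In the fit of the 8 arrays alone mio, Wdr24, the PIG-M transcript, Tfb5/CG31917 and CG42375/CG9288 missed the test (adjusted p from 0.064 to 0.14). Under cyclic loess alpha-Spec, Wdr24, the PIG-M transcript and Tfb5/CG31917 did (0.062 to 0.27), with the pooled array kept Wdr24, the PIG-M transcript and Tfb5/CG31917 (0.063 to 0.099), with slide as a fixed block Tfb5/CG31917 and CG42375/CG9288 (0.14 and 0.062), and with array medians centred again CG42375/CG9288 (0.11). The share of calls that moved the same way at 24 h against 2 h was 61.5%, 58.8% with dim transcripts left out and 64.7% over 2-fold. Within slides, the shares for letters A, B and D were 99.5%, 96.6% and 96.3% with dim transcripts left out and 99.6%, 95.8% and 98.8% over 2-fold. The place of 18 h replicate C was 0.926 under cyclic loess, 0.943 with dim transcripts left out and 0.946 over 2-fold. Cyclic loess moved the median difference of all transcripts from 0.06 to 0.00. Signs were followed for the named transcripts, the 2 largest rises and the 2 largest falls only. Across 26 settings none of those past the test changed sign. A change of sign was seen for 8 named transcripts that had not passed, all at an adjusted p of 0.22 or above. For these, leaving out 1 array gave log2 differences from -0.219 to 0.0951 for fend, -0.214 to 0.254 for NaPi-III, -0.155 to 0.000213 for CG42496/Ppcdc, -0.194 to 0.262 for Sws1/Rad1, -0.181 to 0.00518 for CG33995/CG44001/CG44000, -0.156 to 0.227 for CG17325/CG42305, -0.0405 to 0.0765 for Mocs2A/Mocs2B and -0.0801 to 0.11 for CG6191/CG45088. Signs also turned with slide as a fixed block for fend (0.0366), NaPi-III (0.104), Sws1/Rad1 (0.0906, and 0.012 with slide as a random block), Mocs2A/Mocs2B (-0.0341) and CG6191/CG45088 (0.00219). With the letter block they turned for the same 5 transcripts (0.14, 0.223, 0.298, -0.0539 and 0.0694). With array medians centred again they turned for NaPi-III (0.00486), Sws1/Rad1 (0.0261) and CG6191/CG45088 (0.0236), and under cyclic loess for CG17325/CG42305 (-0.000703) and Mocs2A/Mocs2B (-0.0936). Without 18 h replicate C and 24 h replicate B the values were 0.0951 for fend, 0.254 for NaPi-III, 0.262 for Sws1/Rad1, -0.0405 for Mocs2A/Mocs2B and 0.0567 for CG6191/CG45088. Without 18 h replicate C and 6 h replicate B they were 0.00691, 0.275, 0.0737, -0.0753 and 0.174 for the same transcripts, with 0.0601 for CG33995/CG44001/CG44000 and -0.0735 for CG17325/CG42305. Dim signal and 4 arrays per stage limit small changes.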
